A study of Mus musculus with 23 samples.

Results

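B3galt2, Cst6, Bglap3 and Slc20a1 are 4 of the 24917 gene loci for which reads were counted in colonic epithelium of mice on long diets. They were chosen from the study's supplementary gene lists as genes listed in the same direction in obese mice at both life stages, outside the better known families, and their rows were matched by gene symbol. The aged samples behind those lists carry the group sizes and numbers of batch 1. Values of batch 1 are therefore given as a description with no test, and tests were run on batch 2. The genes were proposed with results of both batches known, so those tests are not independent support for the choice.

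The animals were male C57BL/6 mice (C57BL/6J in the study's methods) that entered the diets at 6 weeks of age. LF mice were fed a diet with 10% fat for 43 weeks, HF mice a diet with 60% fat for 43 weeks, and HF-LF mice the 60% fat diet for 15 weeks followed by the 10% fat diet for 28 weeks. Batch 1 held 4 LF, 3 HF and 4 HF-LF samples, and batch 2 held 4 LF, 3 HF and 5 HF-LF samples. The epithelium of the whole colon was detached with EDTA, so the values average over the length of the colon and over all cells of the preparation. The labels name the batches but not what separated them, and neither the labels nor the methods say whether samples of both batches came from the same mice. The methods name fewer mice per regimen than both batches hold together, so batch 2 may not be independent of batch 1, and p-values measure the spread between these samples. Since tissue was measured in bulk, fewer cells of a type and less RNA per cell cannot be told apart.

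The 4 genes act in unrelated steps of cell biology. B3galt2 encodes a Golgi enzyme that adds galactose in a β-1,3 linkage to N-acetylglucosamine, an early step in extending glycan chains. Cst6 encodes cystatin E/M, a secreted inhibitor of cysteine proteases such as legumain and cathepsin L. Bglap3 is a neighbour and close relative of the osteocalcin genes Bglap and Bglap2, which osteoblasts use to make a bone matrix protein carrying vitamin K-dependent Gla residues. Slc20a1 encodes PiT1, a plasma membrane carrier that brings phosphate into cells together with sodium, and is widely used across tissues.

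Sequencing gave 29189922 to 65320947 counted reads per library. The HF libraries of batch 2 were among the deeper, at 39781396 to 65320947 reads against 31607019 to 44070889 in LF mice. At these depths 3 reads correspond to 0.0459 to 0.103 CPM, the unit used below, which scales counts to the TMM-adjusted size of each library. The 6 epithelial markers checked, among them Epcam and Vil1, summed to between 9183 and 12610 CPM in every sample. The 5 smooth muscle markers summed to 0.702 to 4.20 CPM in HF mice and 5.33 to 28.4 CPM in LF mice of batch 2, and 1 of the 5, Actg2, passed the test used below as lower in HF mice (log2 difference -3.01, edgeR adjusted p = 0.0350). The 5 fibroblast markers summed to 4.27 to 15.8 CPM in HF mice and 9.18 to 33.0 CPM in LF mice of batch 2. Each was lower in HF mice, by log2 differences from -1.45 to -0.98, and 0 were called. The 3 goblet cell markers summed to 12881 to 17565 CPM in HF mice and 19529 to 26836 CPM in LF mice of batch 2. Clca1 added at most 7.52 CPM to these sums, so they follow Muc2 and Tff3. Muc2 was lower in HF mice without a call (log2 difference -0.56, edgeR adjusted p = 0.0766). The goblet cell peptide Tff3 passed as higher in HF mice (log2 difference 0.63, edgeR adjusted p = 0.0280). In batch 1 the ranges of the smooth muscle, fibroblast and goblet cell sums overlapped between HF and LF mice. The 5 immune markers found in the file of 6 listed summed to 15.1 to 17.6 CPM in HF-LF mice and 11.4 to 14.9 CPM in HF mice of batch 2. In batch 1 the immune sums overlapped, at 12.1 to 20.0 CPM in HF-LF mice and 16.5 to 22.1 CPM in HF mice. Between HF-LF and HF mice of batch 2 the markers called were the T cell gene Cd3e (log2 difference 0.94, edgeR adjusted p = 0.0422), Tff3 (-0.47, edgeR adjusted p = 0.0292) and the brush border enzyme gene Sis (-0.57, edgeR adjusted p = 0.0271). Each of these 3 calls was lost without HF-LF sample 1, HF sample 2 or HF sample 3 (edgeR adjusted p from 0.0560 to 0.170). The part of these shifts in the results below was not tested.

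In batch 2, B3galt2 and Cst6 were higher and Slc20a1 was lower in HF than in LF mice, so 3 of the 4 genes were called, against 7.44% of the 14377 genes tested. Calls rest on edgeR's quasi-likelihood test and need both a fold change of more than 1.2 and a p, adjusted by Benjamini and Hochberg, of less than 0.05. Bglap3 was not called in that comparison. All 4 genes were called between HF-LF and HF mice, each in the opposite direction to its HF minus LF difference, against 14.5% of genes tested. Both comparisons share the HF samples. These counts changed when single libraries were left out. Shares of all genes called in those fits were not computed, and fewer samples weaken the test for every gene. The HF minus LF count was 0 without LF sample 1, LF sample 3, HF sample 2 or HF sample 3 and 1 without LF sample 2 or HF sample 1, and the HF-LF minus HF count was 0 without HF sample 2 and 1 without HF-LF sample 4, HF sample 1 or HF sample 3. Between HF-LF and LF mice 0 of the 4 genes were called by edgeR, against 0.00696% of genes tested. At an unadjusted p under 0.05 that number was also 0, and DESeq2 and limma-voom called 0 as well.

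HF and LF samples did not overlap for 4 of 4 genes in batch 2, where 27.3% of genes tested were separated in this way. HF and HF-LF samples did not overlap for 3 of 4 genes in batch 2, against 27% of genes tested, and Bglap3 was the exception. In batch 1, which chose the genes, HF and LF samples did not overlap for 4 of 4 (13.6% of genes tested). HF and HF-LF samples did not overlap for 3 of 4 there (8.02% of genes tested), with Slc20a1 the exception. The choice favoured genes whose HF and LF samples differ in batch 1, and both comparisons share the HF samples. These batch 1 counts therefore cannot show whether the 4 genes separate more often than others, and the percentages are description only.

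**Figure D1:**
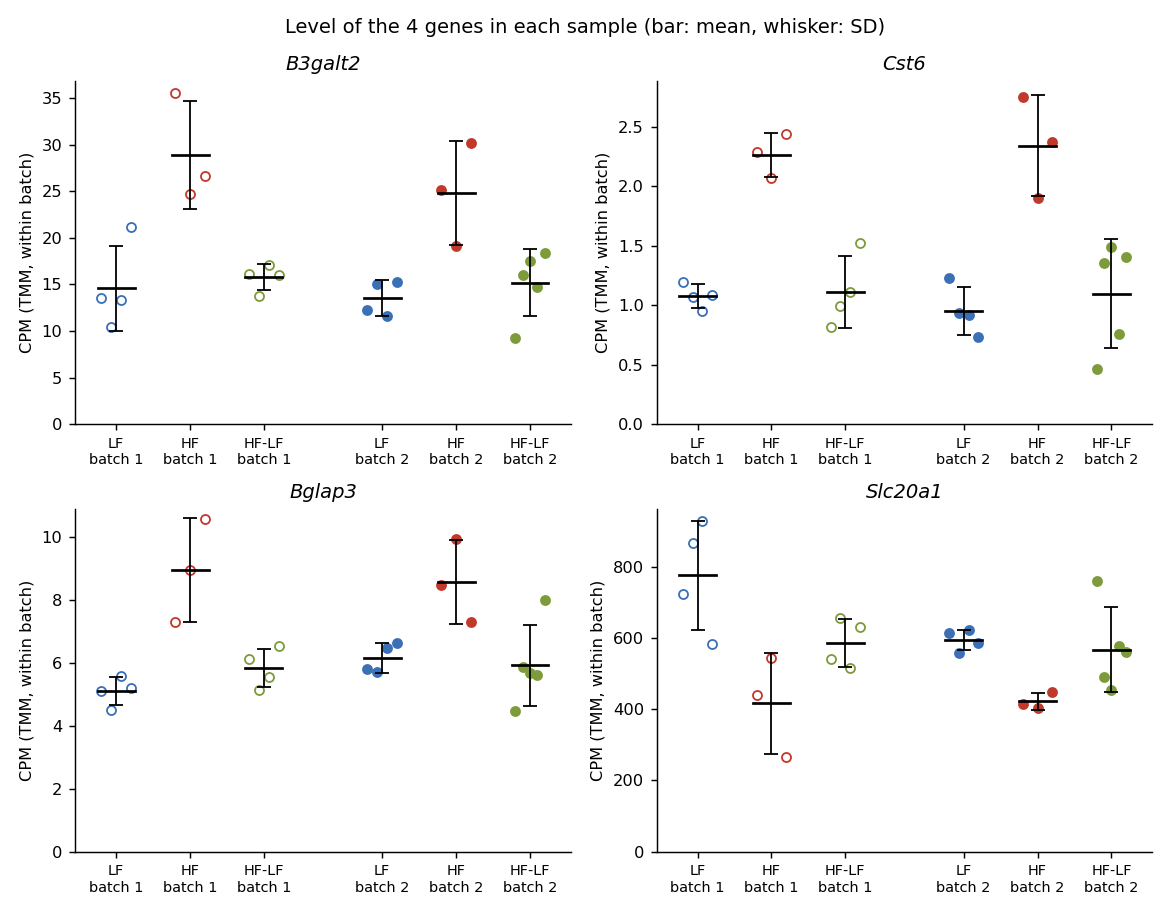
CPM of each gene in every sample (vertical axis, linear from 0), by diet and batch. Open points are batch 1 and filled points batch 2, with bars at the mean and whiskers of 1 SD. In batch 2 the HF samples of B3galt2, Cst6 and Bglap3 all lie above the LF samples and those of Slc20a1 all lie below them.

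**Figure D2:**
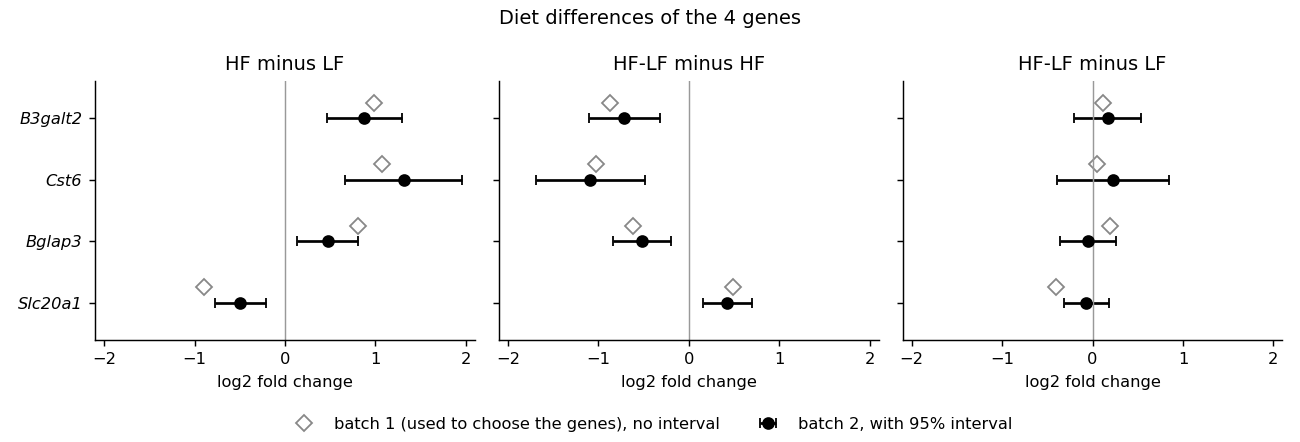
Fitted log2 fold changes of the 4 genes (horizontal axis) in the 3 diet comparisons. Black points are batch 2 with 95% intervals, and open diamonds are batch 1, given without intervals. The intervals of batch 2 exclude 0 for every gene between HF and LF and between HF-LF and HF, and include 0 for every gene between HF-LF and LF.

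B3galt2 (Entrez 26878) lies on chromosome 1 at 143640697 to 143649937 of mm10, plus strand. In batch 2 its level was 12.2, 15.1, 11.6 and 15.3 CPM in LF mice, 25.2, 19.1 and 30.2 CPM in HF mice, and 9.26, 16.0, 17.5, 14.7 and 18.4 CPM in HF-LF mice. The lowest HF sample lay above every LF and HF-LF sample, and HF-LF sample 1 lay below every LF sample. The HF mean of 24.8 ± 5.56 CPM (SD, n = 3) was 1.83 times the LF mean of 13.5 ± 1.91 CPM (SD, n = 4). The fitted difference was 0.88 on the log2 scale (SE 0.193, 95% interval 0.465 to 1.29, adjusted p = 0.0280, edgeR's quasi-likelihood test). HF-LF mice were lower than HF mice by a log2 difference of -0.71 (SE 0.182, adjusted p = 0.0223, edgeR). Against LF mice the HF-LF difference was 0.17 (95% interval -0.208 to 0.540).

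The higher level in HF mice lost its call without LF sample 1, LF sample 3, HF sample 2 or HF sample 3, with edgeR adjusted p of 0.0838, 0.0882, 0.0720 and 0.0843, and log2 differences from 0.71 to 1.04. The lower level in HF-LF mice lost its call without HF sample 2 or HF sample 3 (edgeR adjusted p = 0.0770 and 0.0904). In batch 1, B3galt2 stood at 13.5, 10.4, 13.3 and 21.1 CPM in LF mice, 35.5, 24.7 and 26.6 CPM in HF mice, and 16.2, 13.8, 17.1 and 16.1 CPM in HF-LF mice. LF sample 4 was the highest outside the HF group. The fitted HF minus LF difference there was 0.99 on the log2 scale.

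B3galt2 lies inside the locus of Cdc73, which encodes a subunit of the PAF1 complex and is read from the opposite strand. GENCODE vM21 places 1 exon of Cdc73 over B3galt2, and 571 of 4503 windows of 76 bases of the B3galt2 transcript inside the counted locus, 12.68%, are also found on the opposite strand of Cdc73 transcripts. Whether strand was used in counting is not given in the sources used here, so reads in that stretch may not be told apart. Cdc73 itself did not pass the test between HF and LF mice (log2 difference -0.09, edgeR adjusted p = 0.477). Over the 23 samples the batch-centred log2 levels of B3galt2 and Cdc73 had a Pearson r of -0.11. Glrx2, a mitochondrial glutaredoxin gene 89.412 kb away, had a log2 difference of 0.04 and was not called.

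Cst6 (Entrez 73720) lies on chromosome 19 at 5344705 to 5349574, minus strand, and was the faintest of the 4 genes. In batch 2 its level was 1.22, 0.932, 0.915 and 0.732 CPM in LF mice, 2.75, 1.90 and 2.37 CPM in HF mice, and 0.458, 1.36, 1.49, 0.760 and 1.40 CPM in HF-LF mice. These values rest on 15 to 155 reads per library. HF-LF sample 1, with 15 reads, had an exact 95% binomial interval of 0.257 to 0.756 CPM, and HF sample 3, with 155 reads, one of 2.01 to 2.77 CPM. Such intervals hold counting error alone, because reads without molecular identifiers are not independent molecules.

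No HF sample of Cst6 overlapped the other diets. Its HF mean of 2.34 ± 0.427 CPM (SD, n = 3) was 2.46 times the LF mean of 0.951 ± 0.203 CPM (SD, n = 4), the widest ratio among the 4 genes. The log2 difference was 1.31 (SE 0.304, 95% interval 0.662 to 1.96, adjusted p = 0.0310, edgeR). HF-LF mice were lower than HF mice by a log2 difference of -1.09 (SE 0.283, adjusted p = 0.0238, edgeR). HF-LF and LF mice differed by 0.23 with a wide 95% interval of -0.398 to 0.850. The HF-LF samples fell into a low pair, samples 1 and 4, and 3 samples above every LF sample.

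The Cst6 call between HF and LF mice was lost without LF sample 1, 2 or 3 (edgeR adjusted p = 0.0781, 0.0555 and 0.0901) and without HF sample 1, 2 or 3 (edgeR adjusted p = 0.0553, 0.105 and 0.0808), while the log2 difference stayed between 1.18 and 1.45. Between HF-LF and HF mice it was lost without HF-LF sample 4 or HF sample 1, 2 or 3 (edgeR adjusted p = 0.0551, 0.0604, 0.102 and 0.0618). In batch 1, Cst6 was at 1.19, 1.07, 0.949 and 1.09 CPM in LF mice, 2.29, 2.07 and 2.43 CPM in HF mice, and 0.814, 0.996, 1.11 and 1.52 CPM in HF-LF mice, with a fitted HF minus LF difference of 1.07. No HF sample overlapped the other diets in this batch either. Of 4083 windows of Cst6 transcripts in its locus, 0 were shared with another gene. The nearest expressed neighbour, Banf1, a chromatin-binding protein gene 15.059 kb away, had a log2 difference of 0.16 between HF and LF mice (not called) and of -0.27 between HF-LF and HF mice (edgeR adjusted p = 0.0436), a call lost without any of LF samples 2 and 3, HF-LF samples 1, 3 and 4 and HF samples 2 and 3 (edgeR adjusted p from 0.0521 to 0.196).

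Bglap3 (Entrez 12095) lies on chromosome 3 at 88368617 to 88369720, minus strand, 8.016 kb from Bglap2, with Bglap beyond it on the same strand. The genes are near copies. Over the 285 coding bases without the stop codon Bglap3 and Bglap are 95.4% identical with 13 mismatches, Bglap3 and Bglap2 are 96.8% identical with 9, and Bglap and Bglap2 are 98.6% identical with 4. The last 120 coding bases before the stop are shown because reads can be assigned to 1 of the 3 genes only where such bases differ. They were read from GENCODE vM21 transcripts (GRCm38), 5′ to 3′. Capitals mark the 7 bases of Bglap3 that differ from at least 1 of the other genes, the 7 of Bglap and the 6 of Bglap2 that differ from Bglap3.
Bglap3: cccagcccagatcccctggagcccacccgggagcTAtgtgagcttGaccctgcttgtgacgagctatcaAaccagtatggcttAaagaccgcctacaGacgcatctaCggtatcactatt
Bglap2: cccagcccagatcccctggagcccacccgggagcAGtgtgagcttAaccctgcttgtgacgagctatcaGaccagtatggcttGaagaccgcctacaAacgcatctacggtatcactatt
Bglap: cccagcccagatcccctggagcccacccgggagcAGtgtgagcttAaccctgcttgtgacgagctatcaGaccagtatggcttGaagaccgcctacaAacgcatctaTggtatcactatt

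Reads of the osteocalcin genes were almost wholly assigned to Bglap3. Bglap3 had 131 to 477 reads in each of the 23 samples, Bglap had 0 to 3 and Bglap2 had 0 to 1, with Bglap2 at 0 in 22 samples. Inside the counted locus 86 of 1032 windows of 76 bases in Bglap3 transcripts, 8.333%, also occur in other transcripts, 39 of them in Bglap and 56 in Bglap2. For Bglap 49.724% and for Bglap2 72.475% of windows were shared with another gene. How reads mapping to several genes were counted is not given in the sources used here, so the counts of Bglap and Bglap2 may be lowered more than that of Bglap3. The skeletal marker genes Sp7, Ibsp and Col10a1 had no count in any LF or HF sample, and in HF-LF mice of batch 2 a single marker of the 3 reached 0.0271 CPM at most.

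The 250 bases before the RefSeq start of Bglap3 and of Bglap (GRCm38.p6, minus strand, 5′ to 3′) are shown because the Bglap stretch, chr3:88384467-88384716, holds motifs that were not found in the Bglap3 stretch, chr3:88369832-88370081. Both strands were searched for the TATA box motif, spelled as TATAAA, and for TGTGGT (Runx core), TGANTCA (AP-1) and TGACGTCA (CRE). Of 32851 promoters of that length in the RefSeq table, 12.37% hold the TATA box, 14.05% the Runx core, 6.75% the AP-1 motif and 1.55% the CRE. Bglap holds the TATA box 27 bases before its start and the Runx core, here as its reverse complement, 132 bases before it, both in capitals. In the Bglap3 window none of the 4 was found, which says only that these letters are not there. B3galt2 holds none of them either, and Slc20a1 holds a Runx core 77 bases before its start. The RefSeq start used for Bglap3 lies 111 bases upstream of the start of the locus in the counts file, and RefSeq lists 3 starts for the gene. The 111 bases between were not searched, whereas the Bglap stretch adjoins its locus, so the 2 stretches are not placed alike.
Bglap3: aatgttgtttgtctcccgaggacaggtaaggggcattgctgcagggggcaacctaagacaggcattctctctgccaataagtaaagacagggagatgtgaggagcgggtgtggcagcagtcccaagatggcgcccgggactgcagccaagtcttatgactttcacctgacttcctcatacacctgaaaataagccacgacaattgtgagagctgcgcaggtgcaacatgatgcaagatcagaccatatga
Bglap: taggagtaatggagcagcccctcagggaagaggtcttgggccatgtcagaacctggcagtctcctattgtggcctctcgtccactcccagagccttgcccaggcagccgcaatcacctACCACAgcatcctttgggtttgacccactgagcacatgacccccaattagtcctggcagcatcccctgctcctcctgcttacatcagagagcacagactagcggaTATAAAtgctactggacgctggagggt

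In batch 2 the Bglap3 level was 5.81, 5.71, 6.49 and 6.64 CPM in LF mice, 8.49, 9.94 and 7.29 CPM in HF mice, and 4.46, 5.88, 5.69, 5.62 and 8.01 CPM in HF-LF mice. HF samples lay above all LF samples, but HF-LF sample 5 lay above HF sample 3. The HF mean of 8.57 ± 1.32 CPM (SD, n = 3) was 1.39 times the LF mean of 6.16 ± 0.469 CPM (SD, n = 4). That difference, 0.47 on the log2 scale, had an SE of 0.159 and a 95% interval of 0.132 to 0.809, and its adjusted p of 0.0675 in edgeR missed the threshold. It passed in DESeq2 (adjusted p = 0.0275). It also passed in edgeR without HF-LF sample 1 or HF-LF sample 5, with adjusted p of 0.0444 and 0.0495.

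Between HF-LF and HF mice Bglap3 was called lower, with a log2 difference of -0.52 (SE 0.151, 95% interval -0.842 to -0.197, adjusted p = 0.0318, edgeR). The call was lost in limma-voom (-0.37, adjusted p = 0.0596) and in edgeR without HF-LF sample 1, HF-LF sample 4, HF sample 1 or HF sample 2 (adjusted p = 0.0656, 0.0669, 0.0597 and 0.171). HF-LF and LF mice differed by -0.05 (95% interval -0.356 to 0.258). In batch 1, Bglap3 was at 5.10, 4.50, 5.59 and 5.22 CPM in LF mice, 7.29, 8.96 and 10.6 CPM in HF mice, and 6.13, 5.13, 5.56 and 6.53 CPM in HF-LF mice. The fitted HF minus LF difference of batch 1 was 0.81, larger than in batch 2. The difference between the batches was not tested.

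Slc20a1 (Entrez 20515) lies on chromosome 2 at 129198773 to 129211612, plus strand, and was the most abundant of the 4 genes, with 11764 to 34239 reads per library. In batch 2 its level was 613, 558, 622 and 586 CPM in LF mice, 416, 403 and 448 CPM in HF mice, and 759, 490, 453, 577 and 560 CPM in HF-LF mice. LF and HF samples each kept within a narrow range, with coefficients of variation of 4.90% and 5.55%, while HF-LF samples spread by 20.8%. The lowest HF-LF sample, 453 CPM, stood just above the highest HF sample, 448 CPM, and HF-LF sample 1 stood above every LF sample.

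The HF mean of Slc20a1, 422 ± 23.4 CPM (SD, n = 3), lay below the LF mean of 595 ± 29.1 CPM (SD, n = 4), which was 1.41 times as high. The log2 difference was -0.49 (SE 0.132, 95% interval -0.777 to -0.211, adjusted p = 0.0401, edgeR). HF-LF mice were higher than HF mice by 0.43 (SE 0.127, 95% interval 0.156 to 0.699, adjusted p = 0.0342, edgeR), and differed from LF mice by -0.07 (95% interval -0.312 to 0.179). The lower level in HF mice lost its call without LF sample 1, 2 or 3 (edgeR adjusted p = 0.104, 0.0568 and 0.109), HF-LF sample 5 (0.0509) or HF sample 1, 2 or 3 (0.0690, 0.207 and 0.0834). The higher level in HF-LF mice lost its call without HF-LF sample 4 (edgeR adjusted p = 0.0658), without HF sample 1, 2 or 3 (0.0732, 0.166 and 0.0660), and when the 2 diets were fitted alone (0.0540).

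In batch 1, LF mice stood at 724, 867, 929 and 584 CPM, HF mice at 441, 544 and 265 CPM, and HF-LF mice at 540, 656, 516 and 632 CPM. HF sample 2 lay among the HF-LF samples, and HF sample 3 was the lowest of the batch. CPM were scaled within each batch. HF means were 417 CPM in batch 1 and 422 CPM in batch 2, while the LF mean was 776 ± 154 CPM (SD, n = 4) in batch 1 and 595 CPM in batch 2. The fitted HF minus LF difference of batch 1 was -0.90. Inside its locus 451 of 5745 windows of Slc20a1 transcripts, 7.85%, occur in the opposite strand of the unnamed loci 9830144P21Rik and Gm4430. The nearest expressed neighbour, A730036I17Rik, had 5 to 30 reads and was not called.

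The HF-LF group can also be placed on the way from the LF mean (0%) to the HF mean (100%) of log2 CPM. In batch 2 it stood at 15.8% for B3galt2, 7.15% for Cst6, -16.6% for Bglap3 and 18% for Slc20a1, so the mean lay nearer to LF than to HF mice for each gene. Single HF-LF mice were spread far more widely, from -62.4% to 52.4% for B3galt2, from -78.7% to 51.3% for Cst6, from -98.9% to 81.6% for Bglap3 and from -71.5% to 79.2% for Slc20a1. The low end was the same sample for all 4 genes, HF-LF sample 1. Without it, a choice made after seeing the data, the group stood at 35.4%, 28.6%, 3.99% and 40.3% in the same order, still nearer to LF than to HF mice. In batch 1 the group stood at 15.5%, 1.32%, 24.1% and 41.7% in the same order, and the largest of these, Slc20a1, went with an HF-LF minus LF difference of -0.41 on the log2 scale.

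**Figure D3:**
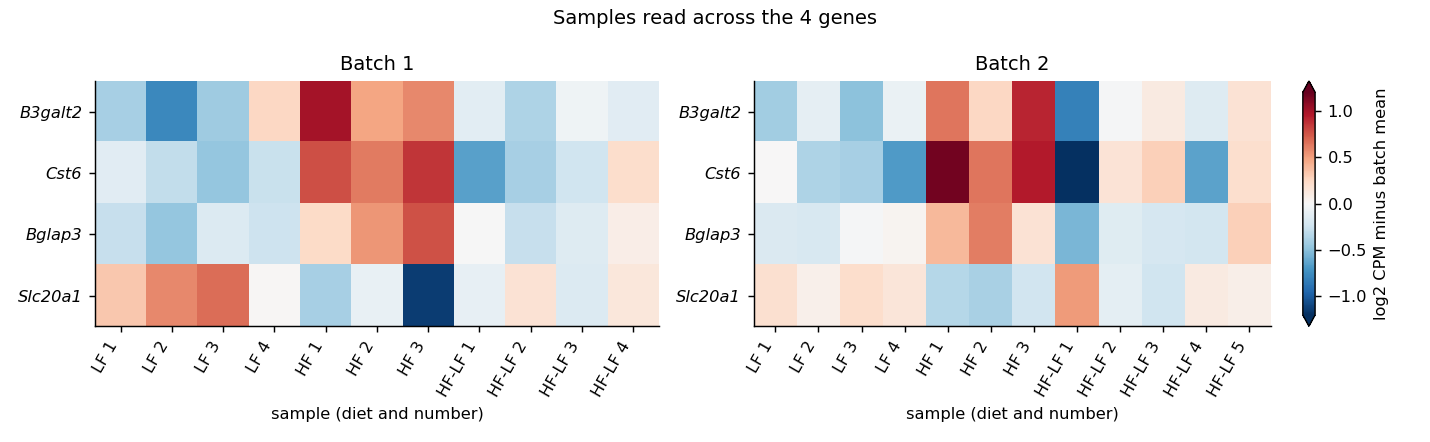
Log2 CPM minus the mean of the batch (colour, red above and blue below) for the 4 genes in each of the 23 samples, ordered by diet. HF columns are red for B3galt2, Cst6 and Bglap3 and blue for Slc20a1, and HF-LF sample 1 of batch 2 shows the reverse in all 4 rows.

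Read across samples, Slc20a1 ran opposite to the other 3 genes. Over 23 samples, with each batch centred, Pearson r was -0.78 between Slc20a1 and B3galt2, -0.71 with Cst6 and -0.76 with Bglap3, and between 0.74 and 0.82 among the other 3. These values include the diet differences that chose the genes. With each diet group of each batch centred as well, r between Slc20a1 and B3galt2 was -0.44 in batch 1 and -0.65 in batch 2, and r between B3galt2 and Cst6 was 0.13 in batch 1 and 0.70 in batch 2. In batch 2 these values rest on HF-LF sample 1, which was extreme for all 4 genes. Without it they were -0.04 and 0.27. For the other pairs r was then -0.36 (Cst6 and Slc20a1), 0.13 (Bglap3 and Slc20a1), -0.19 (B3galt2 and Bglap3) and -0.05 (Cst6 and Bglap3). All these r are descriptions over samples that share libraries and depth.

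Only batch means were subtracted for the next values, so each r again includes the diet differences that chose the 4 genes. The genes whose batch-centred levels were most like those of each of the 4, out of 14724 compared over 23 samples, were as follows. For B3galt2 they were Cul2, a cullin ubiquitin ligase scaffold, Mrpl1, a mitochondrial ribosomal protein, and Aasdhppt, each at r = 0.87. For Cst6 they were B3galt2, Creb3l3, a transcription factor of lipid metabolism, and Guca2b, the peptide uroguanylin, each at r = 0.82. Bglap3 was most like the histone genes Hist1h2bn (0.89) and Hist1h2bl (0.88) and the nuclear pore gene Ndc1 (0.87). Slc20a1 was most like the tyrosine kinase gene Abl1 (0.94), the TGF-β signal inhibitor Smad7 (0.92) and the mineralocorticoid receptor gene Nr3c2 (0.92).

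To see what surrounded these genes, 72 related genes were listed by function, of which 70 were in the file and 49 had enough reads in batch 2 to be tested. Between HF and LF mice 2 of the 49 were called by edgeR, B3gnt5 higher and Vdr lower, against 7.44% of all genes tested. The median log2 difference of the 49 was 0.08, beside -0.01 over all genes tested. Between HF-LF and HF mice 4 of 49 were called, against 14.5% of all genes tested, with a median of -0.10 beside 0.01. Between HF-LF and LF mice 0 were called by edgeR, DESeq2 or limma-voom, and 2, 2 and 1 stood at an unadjusted p under 0.05. In edgeR 4.65% of all genes stood at an unadjusted p under 0.05 in that comparison, and 33.1% did between HF and LF mice, the share against which the unadjusted counts of the lists below are to be read. The HF minus LF count was 0 without LF sample 1, LF sample 3, HF sample 2 or HF sample 3, 1 without LF sample 2, HF sample 1, HF-LF sample 4 or HF-LF sample 5, 4 without HF-LF sample 1 and 5 without LF sample 4. The HF-LF minus HF count was 0 without HF sample 2, 1 without HF sample 3 or HF-LF sample 4, 7 without LF sample 1 and 9 without HF-LF sample 2. Here too, shares of all genes called in the fits without a sample were not computed.

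**Figure D4:**
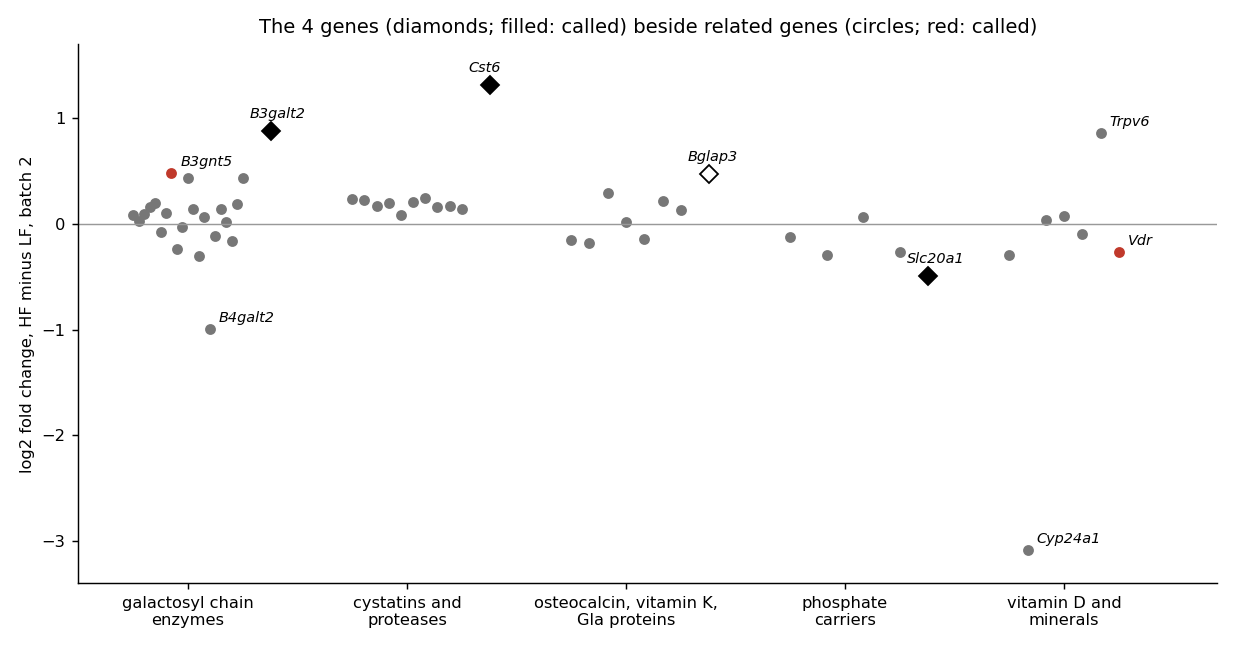
Log2 fold change between HF and LF mice of batch 2 (vertical axis) for 49 related genes in 5 functional lists (circles, red where called) and the 4 chosen genes beside their list (diamonds, open where not called). B3galt2 and Cst6 lie above every related gene of their list and Slc20a1 below every related phosphate carrier, while Trpv6 and B4galt2 lie far from 0 without a call, as does Cyp24a1, whose value rests on LF sample 1.

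Of 24 genes that serve the adding of galactose, N-acetylglucosamine and related sugars to glycan chains, 21 were tested and had a median HF minus LF difference of 0.08. B3gnt5, which starts lacto-series glycolipid chains, rose from 70.0 ± 12.4 CPM (SD, n = 4) in LF to 97.6 ± 16.0 CPM (SD, n = 3) in HF mice, a log2 difference of 0.48 (edgeR adjusted p = 0.0382). Without LF sample 1 or 3 or HF sample 2 or 3, and with the 2 diets fitted alone, its edgeR adjusted p was 0.105, 0.110, 0.214, 0.0843 and 0.0513. From HF to HF-LF mice B3galt6, an enzyme of the proteoglycan linker, fell by 0.35 (edgeR adjusted p = 0.0265) and B3gntl1 rose by 0.38 (edgeR adjusted p = 0.0227). The first call was lost without HF-LF sample 1 or 4 or HF sample 2 or 3 (edgeR adjusted p = 0.0594, 0.0583, 0.162 and 0.0690) and the second without HF-LF sample 4 or HF sample 2 or 3 (edgeR adjusted p = 0.0505, 0.147 and 0.0541). Levels of different genes were compared per kilobase of GENCODE exon inside the counted locus, which may not be the exons that were counted. On this scale B3galt2 stood at 2.96 CPM in LF mice of batch 2, far below the leading genes of the list, B3gnt7 at 144 CPM, B3gnt3 at 110 CPM and B3galt5 at 88.7 CPM. In HF mice B3galt5 stood at 94.4 CPM per kilobase and B3galt2 at 5.43 CPM.

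Of 21 cystatins and proteases, 10 were tested and 0 were called between HF and LF mice by edgeR, with 4 at an unadjusted p under 0.05 and a median log2 difference of 0.18. Lgmn (legumain) and Ctsl (cathepsin L), targets of cystatin E/M, had log2 differences of 0.14 and 0.25 (edgeR adjusted p = 0.422 and 0.108). Cst3, the abundant secreted cystatin C, had a log2 difference of 0.24 (edgeR adjusted p = 0.0818) and was called lower in HF-LF than in HF mice by -0.31 (edgeR adjusted p = 0.0256), a call lost without HF-LF sample 1 or 4 or HF sample 2 or 3 (edgeR adjusted p = 0.0545, 0.0577, 0.155 and 0.0543) and, by its fold, with all 23 samples. Cst6 stood at 0.232 CPM per kilobase in LF and 0.572 in HF mice, against 72.9 and 86.0 for Cst3, 17.0 and 18.7 for Lgmn, and 48.4 and 57.4 for Ctsl. The GENCODE exons of Cst6 cover 4090 of the 4870 bases of its locus, against 1087 exon bases for Cst3. The level of Cst6 on this scale may therefore be too low.

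Of 13 genes of the osteocalcin family, the vitamin K cycle and other Gla proteins, 7 were tested and 0 were called between HF and LF mice by edgeR, with 4 at an unadjusted p under 0.05 and a median of 0.02. Among them Ggcx, the carboxylase that makes Gla residues, had a log2 difference of -0.18 (edgeR adjusted p = 0.141), and Vkorc1, which recycles vitamin K, one of 0.21 (edgeR adjusted p = 0.131). Bglap3 stood at 6.42 CPM per kilobase in LF and 8.93 in HF mice, beside 234 and 210 for Gas6, a Gla protein ligand of TAM receptors.

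Of 5 other phosphate carriers, 4 were tested and 0 were called in any comparison, with a median HF minus LF difference of -0.19 and 1 at an unadjusted p under 0.05, Xpr1. Xpr1, the phosphate exporter, had a log2 difference of -0.27 between HF and LF mice (edgeR adjusted p = 0.0930) and of 0.25 between HF-LF and HF mice (edgeR adjusted p = 0.0824). Slc20a2, the paralog PiT2, had differences of -0.12 and 0.08. Slc20a1 was the main carrier of the list by level, at 107 CPM per kilobase in LF mice, against 12.9 for Slc34a2, 9.79 for Xpr1 and 5.21 for Slc20a2.

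Of 9 genes of vitamin D and mineral handling, 7 were tested. Vdr, the vitamin D receptor, was at 504, 475, 485 and 469 CPM in LF mice, 417, 365 and 419 CPM in HF mice, and 523, 437, 481, 497 and 514 CPM in HF-LF mice of batch 2. Every HF sample lay below every other sample. Its log2 difference was -0.27 between HF and LF mice (SE 0.0746, edgeR adjusted p = 0.0425) and 0.29 between HF-LF and HF mice (SE 0.0716, edgeR adjusted p = 0.0199). The second call was lost only without HF sample 2 (edgeR adjusted p = 0.145) among the alternatives run, while the first was lost without HF sample 2 (edgeR adjusted p = 0.223), with adjusted p of 0.0509 to 0.110 without LF sample 1, 2 or 3, HF sample 1 or 3 or HF-LF sample 4 or 5, with no low-count filter (0.0542), and with voom, where its fold change stayed under the threshold. Cyp24a1, which degrades vitamin D, differed by -3.09 between HF and LF mice without passing the test (edgeR adjusted p = 0.153). LF sample 1 stood at 9.48 CPM, the other 3 LF samples at 0.0538 to 0.664 CPM and the HF samples at 0.0217 to 0.657 CPM, and without LF sample 1 the log2 difference was -0.50 (edgeR adjusted p = 0.839). The calcium channel gene Trpv6 differed by 0.86 (edgeR adjusted p = 0.179).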

How the data were processed

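Ribosomal RNA-depleted stranded libraries of colonic epithelium were sequenced as 76-base read pairs. The authors deposited raw counts per gene locus. Per the methods and the labels, the authors trimmed adapters with cutadapt 1.2.1, mapped reads to mm10 with STAR 2.5 and counted them with featureCounts 1.5.0-p1. Use of strand and the handling of reads with several hits are not given in the sources used here.

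Groups and replicate numbers came from sample titles. The members and gene lists were chosen with earlier results of these data known. Counts of batch 2 were fitted with edgeR 4.0.16 (R 4.3.3, filterByExpr, TMM, quasi-likelihood F test, 3 diets in one fit) and p-values were adjusted over all 14377 genes tested. Thresholds were 0.05 for adjusted p and 1.2 for the fold change. The fit was tested on simulated counts. DESeq2 1.42.0, limma 3.58.1 (voom with sample weights), other scalings, no low-count filter, fits of 2 diets, a replicate block, all 23 samples with batch as a covariate, and leaving out each sample were alternatives. Named genes were the members, their neighbours in the counts file, the listed related genes and the 3 genes most alike in pattern. Depth was 29189922 to 65320947 counts per sample.

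Same-numbered samples of different diets in batch 2 had deviations from group means correlated at -0.11 to 0.36 (10 pairs, median r 0.08, 4 over 0.1). Other numbers gave -0.30 to 0.27 (37 pairs, median r -0.03, 8 over 0.1), so same-numbered samples were somewhat more alike. These values do not settle whether the numbers pair samples. The main fit left samples unpaired, and the replicate block was the alternative. Same-numbered samples of a diet in both batches had a median r of 0.00 (11 pairs), beside -0.01 for other numbers (34 pairs). Sequences came from RefSeq (GRCm38.p6) and GENCODE vM21. Windows of 76 bases were taken as shared where the same bases stood in another gene's transcript. Windows and exon lengths were limited to the locus counted for each gene.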

Additional observations from a re-analysis of the deposited data

How the results depend on the processing

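The HF minus LF and HF-LF minus HF differences of the 4 genes kept their direction under all 18 alternatives. Most of their calls were lost in fits without some single library, which also hold fewer samples. Shares of all genes called in those fits were not computed. Leaving out each sample of batch 2 in turn, the number of members called ranged from 0 to 4 between HF and LF mice and from 0 to 4 between HF-LF and HF mice, and related genes called from 0 to 5 and from 0 to 9. Without HF sample 2, 0 members were called in both comparisons. In the same series the log2 differences between HF and LF mice ranged from 0.71 to 1.04 (B3galt2), 1.18 to 1.45 (Cst6), 0.36 to 0.58 (Bglap3) and -0.54 to -0.45 (Slc20a1), and those between HF-LF and HF mice from -0.88 to -0.54, -1.23 to -0.90, -0.66 to -0.42 and 0.30 to 0.48. HF-LF minus LF differences of Bglap3 ranged from -0.19 to 0.04, turning positive (0.0358) without HF-LF sample 1. Under voom this value was 0.00816, also reversed, and the cause was not tested. Bglap3 between HF and LF mice passed with DESeq2 (0.48) and with 2 diets fitted alone (0.47). Between HF-LF and HF mice Bglap3 was lost with voom (-0.37) and Slc20a1 with 2 diets fitted alone (0.43). Related genes called between HF and LF mice were 5 with DESeq2, 4 with voom and 11 with all 23 samples. The fit of 23 samples adds batch 1, and its count over all genes was not computed. Between HF-LF and HF mice 9 were called with DESeq2, which kept the 61 related genes with any read, against 49 tested in edgeR and voom. Over all genes, edgeR, DESeq2 and voom called 1069, 1856 and 1991 between HF and LF mice. They called 2084, 2452 and 2252 between HF-LF and HF mice, and 1, 15 and 0 between HF-LF and LF mice.

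With a replicate block, Bglap3 between HF and LF mice was called (0.50, edgeR adjusted p = 0.0259), related genes called were 5 and 7, and calls over all genes were 2080 between HF and LF mice, 2815 between HF-LF and HF mice and 0 between HF-LF and LF mice. The block changed no other member's call. Of 11 samples of batch 2 with a partner, 6 correlated best with their own number, and 5 of 11 did in batch 1. Across diets in batch 1 the median r was 0.06 for same-numbered samples (10 pairs) and -0.01 for other numbers (30 pairs). Cst6 rested on the fewest reads of the 4 genes, 15 to 155 per library in batch 2.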
